A study of Mus musculus with 4 samples.

Results

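Nrm encodes nurim, a protein of the inner nuclear membrane. It is described here with 9 other genes of the nuclear envelope, namely the lamin genes Lmna, Lmnb1 and Lmnb2, the membrane protein genes Lbr, Emd and Tmpo, and Sun1, Sun2 and Syne2 of the bridge between nucleus and cytoskeleton. The set was chosen by the Nrm values of these arrays, which were low in DTG cells of both sexes, and the other 9 genes were added because they work in the same structure. All probe sets annotated with 1 of these 10 symbols were taken, which gave 27 probe sets for 10 of the 18193 genes that the array names. A probe set is a group of short probes that together measure one transcript. Of the 27, 23 had a mean over the arrays above the median of all probe sets and were tested, and each of the 10 genes kept at least 1.

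The cells were outer root sheath cells, the epithelium around the growing hair, sorted from back skin of FVB/N pups as cells high for α6 integrin and GFP, after endothelial, immune, melanocyte and dead cells had been gated out. This is the sort of the sample protocols. The design text of the series describes a different one, from mice with K14-RFP and Sox9-EGFP. The genotype labels of these 4 animals name K14-H2BGFP and neither K14-RFP nor Sox9-EGFP. The sample protocols were therefore followed. Each of 4 animals gave 1 Affymetrix array of total RNA at postnatal day 4, after 24 hours on doxycycline that began at day 3. The DTG animals (n = 2, one of each sex) had K14-rtTA together with TRE-miR-125b and K14-H2BGFP. In these mice the keratin 14 promoter drives rtTA in basal keratinocytes, and rtTA with doxycycline turns on the miR-125b transgene. The control group (n = 2) held a male with TRE-miR-125b and K14-H2BGFP, hence no activator, and a female with K14-rtTA and K14-H2BGFP, hence no microRNA transgene. All 4 animals carried the nuclear K14-H2BGFP reporter and received doxycycline, so none of them lacked the drug or the reporter. Since the controls of the 2 sexes differ in genotype, sex and control genotype cannot be told apart, and each DTG animal was compared with the control of its own sex. In bulk RNA, fewer cells of a type and less RNA per cell cannot be told apart.

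The nuclear envelope is a pair of membranes around the chromosomes. Lamins form a filament meshwork under the inner membrane, and proteins anchored in that membrane, such as the lamin B receptor, emerin and the LAP2 proteins, tie the meshwork to chromatin. SUN proteins in the inner membrane bind nesprins in the outer one and so couple the nucleus to actin and microtubules, which matters in skin, where keratinocytes carry mechanical load. Nurim spans the inner membrane many times, holds tightly to the nucleus and resembles the enzymes that methylate the tails of prenylated proteins such as lamins.

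The microRNA that separates the groups is shown with its seed, bases 2 to 8, in capitals, because the seed is the stretch that pairs with target transcripts. Its mature form comes from 2 mouse genes, at chr9:41581940-41581961 and chr16:77646279-77646300 on the plus strand of GRCm38.p6. Among 1679 named mature mouse miRNAs of the RefSeq table, 5 carry this seed, and 2 more of them follow for comparison.
mmu-miR-125b-5p: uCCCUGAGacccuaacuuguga
mmu-miR-125a-5p: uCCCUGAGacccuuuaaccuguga
mmu-miR-351-5p: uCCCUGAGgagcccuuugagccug
Transcript sequences of Nrm and the other envelope genes were not used here, so no seed match in them was looked for, and the level of miR-125b was not analysed here.

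The deposited values are log2 expression values, on which a difference of 1 is a doubling. The medians of the 2 male arrays were 5.17 and 5.17, and those of the 2 female arrays 5.92 and 5.95, so levels are set against each other within a sex unless stated. Within the male pair 2327 of all probe sets had exactly the same value on both arrays, and within the female pair 1462 did, against 0 for any male with any female array. Which arrays were normalized together is not given in the sources used here. As a mark of background, the probe sets of Xist on the male arrays reached at most 4.48, and those of the Y-linked genes Eif2s3y, Kdm5d and Uty on the female arrays at most 4.24. All 10 markers of basal and outer root sheath keratinocytes, Krt5, Krt14 and Sox9 among them, were measured at 9.33 or more on every array. Arrays have no count depth, and the number of arrays limits the precision.

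In DTG cells, Nrm was 3.41-fold lower than in controls. Its probe set read 6.69 in the DTG male, 8.55 in the control male, 7.42 in the DTG female and 9.10 in the control female. Both DTG arrays lay below both control arrays, with a gap of 1.13 between the highest DTG and the lowest control value; the arrays of the groups are apart, in either direction, for 5.87% of all genes tested. The mean log2 ratio of DTG to control was -1.77 ± 0.13 (SD over n = 2 pairs, -1.86 for the males and -1.68 for the females), which leaves 29.3% of the control level. All 4 values stood above the background mark of their array. This low value chose the gene, so it is given as a description without a test.

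The low value of Nrm rests on 1 probe set. The array holds a second probe set that names Nrm, and it read 3.0 in the DTG male, 2.96 in the control male, 3.67 in the DTG female and 3.38 in the control female. These values lie at the level of Xist in males and of the Y-linked genes in females, so the second probe set neither repeats the difference nor speaks to it.

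**Figure D1:**
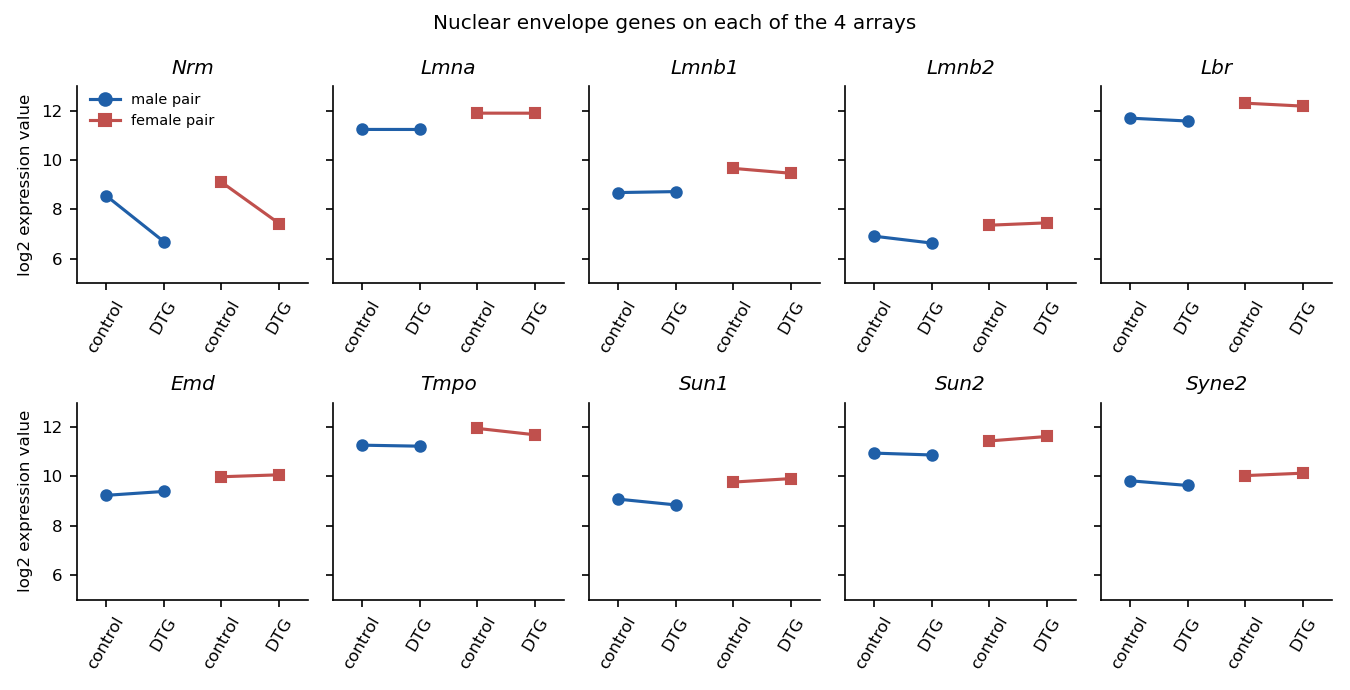
Log2 expression value (y axis) of the brightest probe set of each of the 10 nuclear envelope genes in the control and DTG animal of each sex (x axis); lines join animals of the same sex, and levels are to be compared within a gene only. Nrm goes from 8.55 in control to 6.69 in DTG in males and from 9.10 to 7.42 in females, while the lines of the other 9 genes run nearly flat.

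Lmna encodes the A-type lamins, whose level rises in stiff and differentiated tissues. Its brightest probe set read 11.24 in the DTG male, 11.24 in the control male, 11.90 in the DTG female and 11.90 in the control female. The arrays of a sex were thus nearly the same, with ratios of -0.0013 and -0.0016. Lmna had 4 further probe sets above the filter. The pair ratios of 3 of them lay between -0.14 and 0.076, and the dimmest gave 0.24 and 0.29. In limma, with sex in the model and adjustment over all 22518 probe sets tested, the difference of the brightest probe set had a 95% interval of -0.35 to 0.35.

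Lmnb1 and Lmnb2 encode the B-type lamins, which stay bound to the membrane through a farnesyl tail. Lmnb1 read 8.72 in the DTG male, 8.68 in the control male, 9.46 in the DTG female and 9.66 in the control female. Its ratio was 0.039 for the males and -0.20 for the females, and -0.15 and -0.25 by its second probe set. Lmnb2 read 6.63 in the DTG male, 6.91 in the control male, 7.45 in the DTG female and 7.35 in the control female, with ratios of -0.28 and 0.096. The arrays of the 2 groups overlapped for both genes, as for most genes (they were apart for 5.87% of all). That overlap also takes in the difference in level between the sexes, so it does not measure the difference within a pair. Neither gene passed the test, which called 0% of all probe sets. The 95% interval of the difference in limma was -0.45 to 0.29 for Lmnb1 and -0.49 to 0.30 for Lmnb2. The other probe set of Lmnb2 was below the filter, with 3.23 and 3.04 in the males and 4.53 on both female arrays.

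Lbr encodes the lamin B receptor, which binds heterochromatin and also works as a sterol reductase. It read 11.58 in the DTG male, 11.70 in the control male, 12.18 in the DTG female and 12.30 in the control female. DTG was lower by the same small amount in each pair, with ratios of -0.12 and -0.12 and a 95% interval of -0.47 to 0.23 in limma. Emd encodes emerin, a lamin-binding protein of the LEM domain family. It read 9.39 in the DTG male, 9.23 in the control male, 10.07 in the DTG female and 9.99 in the control female. Emd was the only one of the other 9 genes above control in both pairs, with ratios of 0.16 and 0.078 and an interval of -0.23 to 0.47.

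Tmpo encodes the LAP2 proteins, several of which are anchored in the inner membrane. The brightest of its probe sets read 11.23 in the DTG male, 11.27 in the control male, 11.69 in the DTG female and 11.95 in the control female. The ratios were -0.041 and -0.26, with an interval of -0.52 to 0.22 in limma. Tmpo had 5 probe sets above the filter, whose mean ratios over both pairs lay between -0.25 and -0.058. The widest single ratio among all other envelope probe sets was also of Tmpo, with 0.14 for the males and -0.56 for the females by a dim probe set.

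Sun1, Sun2 and Syne2 form the bridge to the cytoskeleton. Sun1 read 8.85 in the DTG male, 9.08 in the control male, 9.91 in the DTG female and 9.77 in the control female. Sun2 read 10.87 and 10.95 in the males and 11.62 and 11.44 in the females, DTG first. Syne2, the gene of the giant outer membrane protein nesprin-2, read 9.63 and 9.82 in the males and 10.13 and 10.04 in the females, DTG first. All 3 were slightly below control in the male pair and slightly above it in the female pair. The ratios were -0.23 and 0.14 for Sun1, -0.0755 and 0.18 for Sun2 and -0.19 and 0.099 for Syne2. The second probe sets of Sun1 (-0.33 and 0.19) and Sun2 (-0.27 and 0.16) had the same signs. Of the 3 further probe sets of Syne2, 1 had -0.011 and -0.49.

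**Figure D2:**
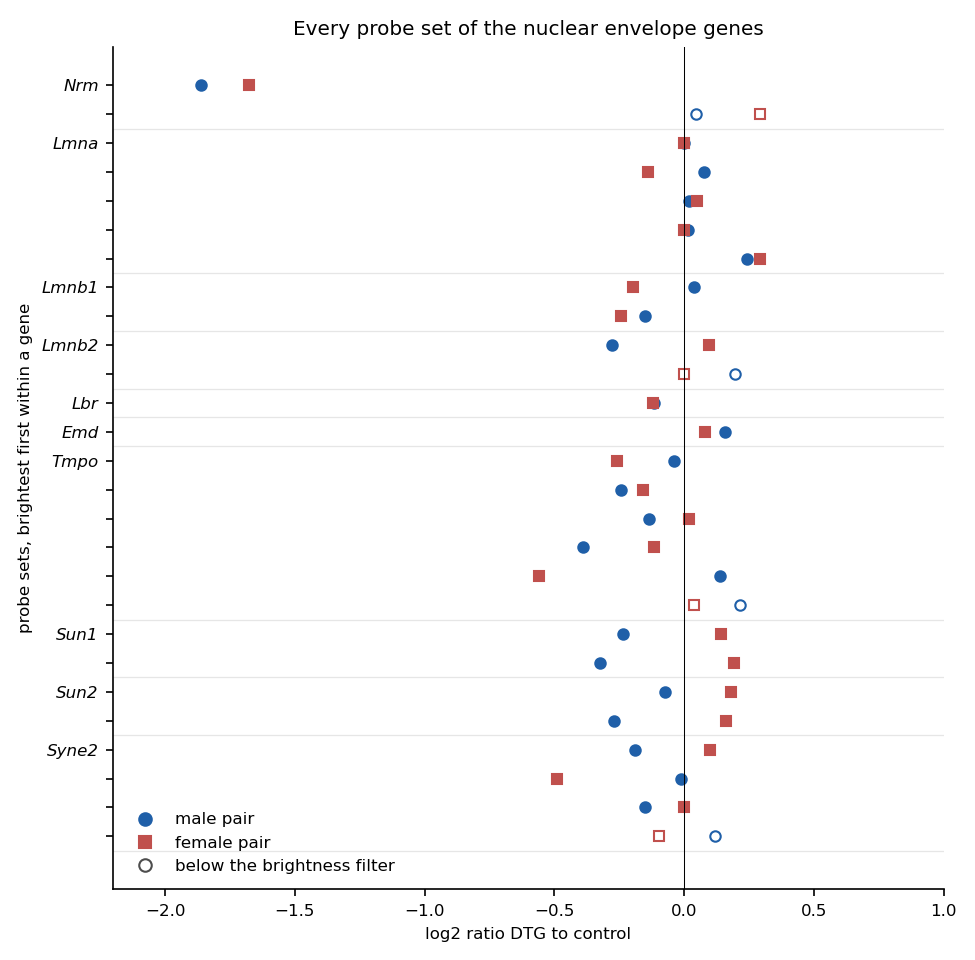
Log2 ratio of DTG to control (x axis) in the male pair (circles) and the female pair (squares) for all 27 probe sets of the 10 genes (rows), with open symbols for the 4 below the brightness filter. The first Nrm probe set stands at -1.86 and -1.68, and the 22 tested probe sets of the other genes lie between -0.56 and 0.29.

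The other 9 genes differed less than Nrm by the mean ratio, as did every other tested gene, so this does not set them apart. Their mean ratios lay between -0.15 (Tmpo) and 0.12 (Emd), and all 9 were within 0.2 of no difference, where 73.1% of all 11160 tested genes lay. Over all 22 tested probe sets of these 9 genes, the ratios lay between -0.39 and 0.24 in the males and between -0.56 and 0.29 in the females. The lowest bound of any 95% interval was -0.52 over the 9 genes and -0.70 over their 22 probe sets. In limma with sex in the model, 0 of the 9 genes passed an adjusted p of 0.05, and 0 were under an unadjusted p of 0.05. Their adjusted p lay between 0.962 and 1. That test called 0% of all probe sets in either direction, so a lack of calls is no mark of these genes. At an unadjusted p under 0.05, it placed 4.71% of genes lower and 2.24% higher. An exact two-sided permutation test of 2 against 2 arrays that ignores the pairing by sex cannot go below p = 0.333.

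The direction of the other 9 genes was mixed. Lower in both pairs were 3 of them (Lmna, Lbr and Tmpo), 1 was higher (Emd) and 5 were divided, while 25.1% of all genes were lower and 26.9% higher in both. For Lmna the ratios were only -0.0013 and -0.0016, and the mean over its tested probe sets gave 0.055. The ratios of the 9 genes had a median of -0.0755 in the males and 0.078 in the females, against 0.029 and -0.015 over all genes. Their median size without sign was 0.12 in each pair, against 0.16 in the males and 0.15 in the females over all genes. Nrm alone of the 10 was at least 1.5-fold lower in both pairs, a class that holds 0.851% of all genes, and 0 of the 10 were as much higher in both, a class of 0.0627%. By the mean of the pair ratios Nrm ranked lowest of the 11160 genes, and by the smaller of its falls it also ranked first, with Tmem123 next (-1.53 and -1.18). The difference between Nrm and the rest was not tested, because Nrm was chosen for it.

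**Figure D3:**
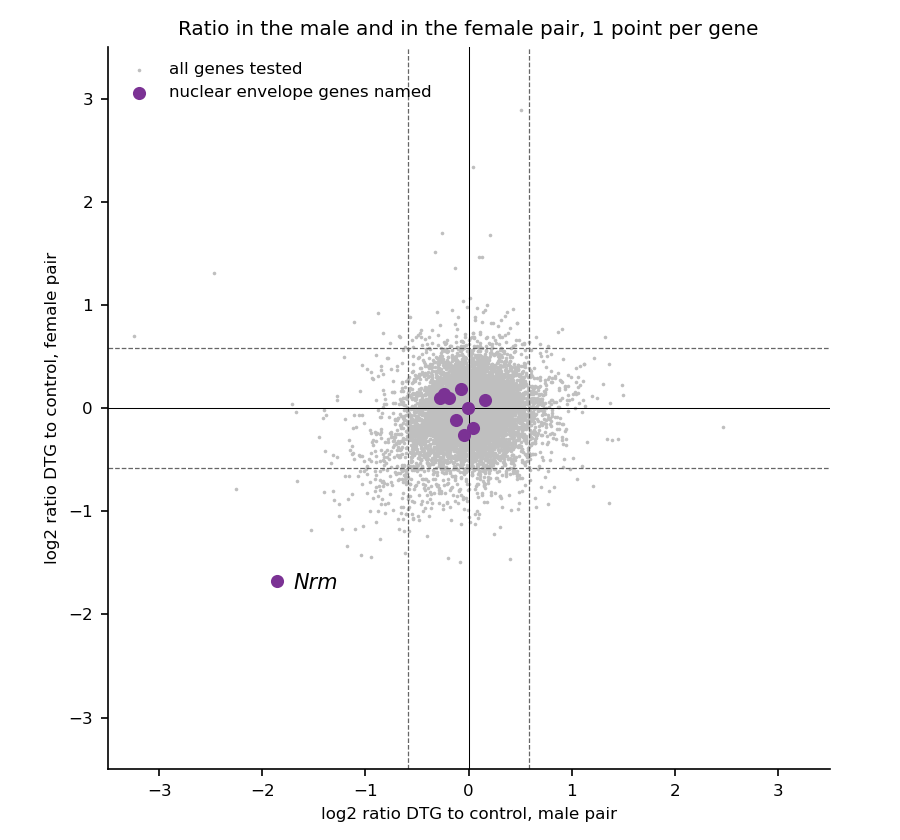
Log2 ratio of DTG to control for the males (x axis) against the females (y axis) for the brightest probe set of each of 11160 genes (grey) and of the 10 nuclear envelope genes (purple), with dashed lines at 1.5-fold. Nrm lies alone at the lower left with -1.86 and -1.68, and the other 9 lie inside the dashed lines in the centre of the cloud.

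Other genes of the nuclear envelope were then taken from 4 lists of lamin processing, inner membrane, bridge and pore components. Besides the 10 genes, these lists held 52 names, of which 45 were tested. By limma, 0 of the 45 passed over all probe sets. At an unadjusted p under 0.05, 5 were lower (against 4.71% of all genes) and 1 higher (against 2.24%). Of the 45, 19 were lower in both pairs (42.2%, against 25.1% of all genes) and 9 higher in both. The median of their ratios was -0.0073 for the males and -0.0845 for the females. At least 1.5-fold lower in both pairs was 1 of the 45, Seh1l, against 0.851% of all genes.

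Rce1, the protease that trims the prenylated tails of lamins, had the lowest mean ratio of the 45. It read 7.69 in the DTG male, 8.38 in the control male, 8.71 in the DTG female and 9.28 in the control female. DTG was thus the lower animal in each sex, with ratios of -0.69 and -0.56, but limma gave an adjusted p of 0.584. Icmt, the methyltransferase that nurim resembles, had only -0.088 and -0.059, and Zmpste24, the protease that matures lamin A, had 0.0055 and 0.13. Fntb, which encodes a subunit of the enzyme that adds the farnesyl tail, had -0.19 and -0.14. Narf, which binds prelamin A, was on the other side with 0.23 and 0.62, although 1 of its 2 dimmer probe sets gave -0.16 and 0.81.

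In the inner membrane list, Tmem201, whose product Samp1 links the lamina to the cytoskeleton bridge, had -0.45 and -0.57 by its brightest probe set, but -0.16 and 0.29 by another. Nemp1 had -0.081 and -0.78. Lemd3, a LEM protein that binds SMAD factors, had 0.22 and -0.39 by its brightest probe set, but the reverse signs, -0.35 and 0.39, by a dimmer one. Of the 13 genes of this list, Nrm included, both pairs were lower for 7 (53.8%, against 25.1% of all genes) and higher for 3. Of the 7 bridge and torsin genes tested, 0 were lower in both pairs. In this list, Spag4, a SUN family gene, had -0.25 and 0.28, and Tor1a, an ATPase of the envelope lumen, had 0.060 and -0.30.

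Among 26 pore genes, both pairs agreed on a lower value for 12 (46.2%, against 25.1% of all genes) and a higher one for 4. In limma, 0 of them passed. Seh1l, a gene of the pore's Y complex, read 9.39 in the DTG male, 10.01 in the control male, 9.83 in the DTG female and 10.43 in the control female. Its ratios of -0.62 and -0.60 were nearly equal. It had 5 more tested probe sets, of which 4 were lower in both sexes and 1 was higher (0.12 and 0.17). Nup210, a membrane-anchored pore gene, had -0.47 and -0.35, and Nup188, of the inner ring, had -0.35 and -0.42. Nup153, of the nuclear basket, was divided with 0.29 and -0.27, and with 0.63 and -0.63 by a dimmer probe set.

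**Figure D4:**
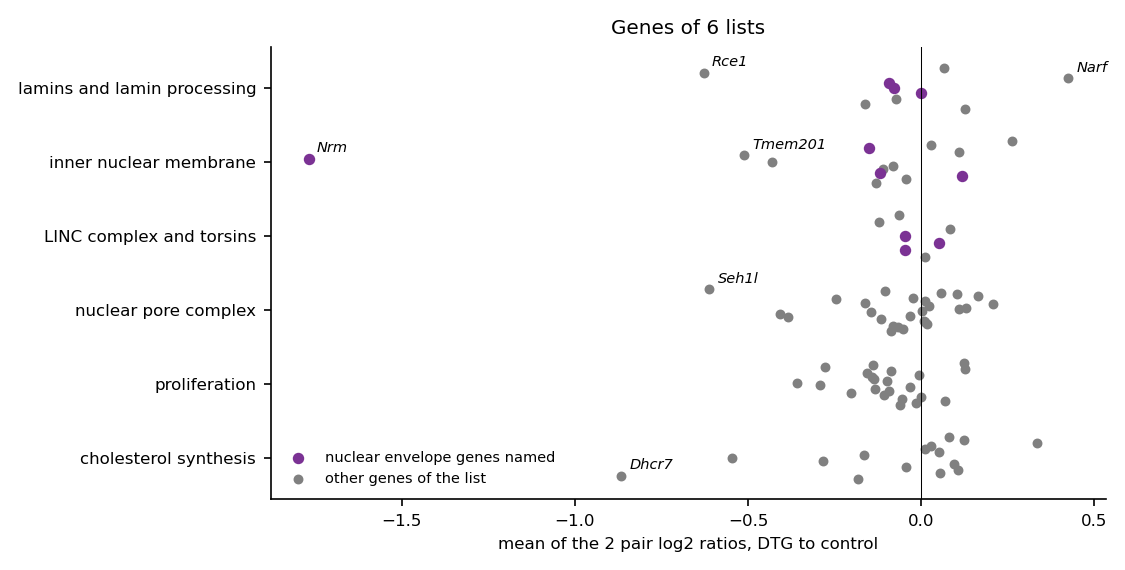
Mean of the 2 pair log2 ratios of DTG to control (x axis) for the brightest probe set of each tested gene in 6 lists (rows), with the 10 nuclear envelope genes in purple. Nrm stands at -1.77, and the other genes of all 6 lists lie between -0.87 (Dhcr7) and 0.43 (Narf).

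Levels of B-type lamins, Lbr and Tmpo are known to go with cell division, so a list of proliferation genes was set beside them. Of 22 tested, 14 were lower in both pairs (63.6%, against 25.1% of all genes) and 1 higher (against 26.9%). The medians were -0.039 and -0.14, and 0 passed in limma. The replication gene Mcm3 had -0.37 and -0.35 by its brightest probe set, and -0.32 and 0.024 by 1 of its dimmer ones. Mcm2 had -0.068 and -0.52, Rrm2, a subunit of ribonucleotide reductase, had -0.25 and -0.31, and the mitotic kinase gene Aurkb had 0.30 and -0.33. The reductase activity of the lamin B receptor takes part in cholesterol synthesis. Of 15 genes of this pathway, 4 were lower in both pairs (26.7%, against 25.1% of all genes) and 1 higher. Their medians were opposite, with 0.25 and -0.26. Dhcr7, a sterol reductase related to the lamin B receptor, had -0.88 and -0.85 (adjusted p = 0.525 in limma), in contrast with the -0.12 and -0.12 of Lbr. Idi1 had -0.27 and -0.83, Msmo1 0.58 and -0.47, and Ebp -0.33 and 0.44.

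The genes most like Nrm over the 4 arrays were found by the Euclidean distance between the 4 values of a gene and those of Nrm, each gene centred on its mean. The distance uses the values that chose Nrm, so genes with a strong fall in both pairs are near and flat genes far by construction, and it is given as a description. The nearest were Tmem123, a membrane receptor gene (distance 0.483), Mreg, the melanoregulin gene (0.554), Fam83h (0.628), Msrb3 (0.672), Cd36, the fatty acid transporter gene (0.685), and Zbed4 (0.754).

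The genes beside Nrm on mouse chromosome 17 are given as a description, since every other tested gene had a mean ratio nearer to 0 than Nrm. Its nearest 5 protein-coding genes on each side in the RefSeq order were taken after the values of Nrm had been seen, and all 10 were tested. Their mean ratios lay between -0.16 and 0.38. More than 1.5-fold higher in a single pair were 2310061I04Rik (0.81 and -0.080), Atat1 (0.65 and -0.27) and Ier3 (-0.030 and 0.71), males first. None was as much lower in a pair. Mdc1, next to Nrm on one side, had 0.066 and -0.021, and Ppp1r18, next on the other, had 0.11 and -0.14. Lower in both pairs was 1 of the 10 (against 25.1% of all genes), Dhx16 with -0.18 and -0.031. Higher in both were 2 (against 26.9% of all genes), Flot1 and Tubb5. In limma, 0 of the 10 passed, as did 0 probe sets of the whole array, and the smallest adjusted p of the 10 was 0.773.

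Between the sexes, which the choice of the genes did not use, the envelope genes differed by about as much as the arrays as a whole. In limma, 9 of the 10 were lower in males at an adjusted p under 0.05, as were 73.8% of all genes, and 0 were higher, against 2.54% of all genes. Syne2 was the exception, with a difference of male minus female of -0.35 ± 0.15 (SE, limma adjusted p = 0.0774), and it passed with an intensity trend in the model (adjusted p = 0.0495). Sun2 passed by its brightest probe set but not by the mean over its probe sets (-0.35, adjusted p = 0.0718). The differences lay between -0.88 (Sun1) and -0.35 (Syne2), with a median of -0.64, against a median of -0.69 over all tested probe sets. The 95% intervals of all 10 genes held that overall median. With the 4 arrays quantile-normalized together, or with each array's median subtracted, 0 of the 10 passed. For Nrm the difference of male minus female was -0.64 as deposited and 0.037 after quantile normalization, where the effect of genotype was still -1.75.

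**Figure D5:**
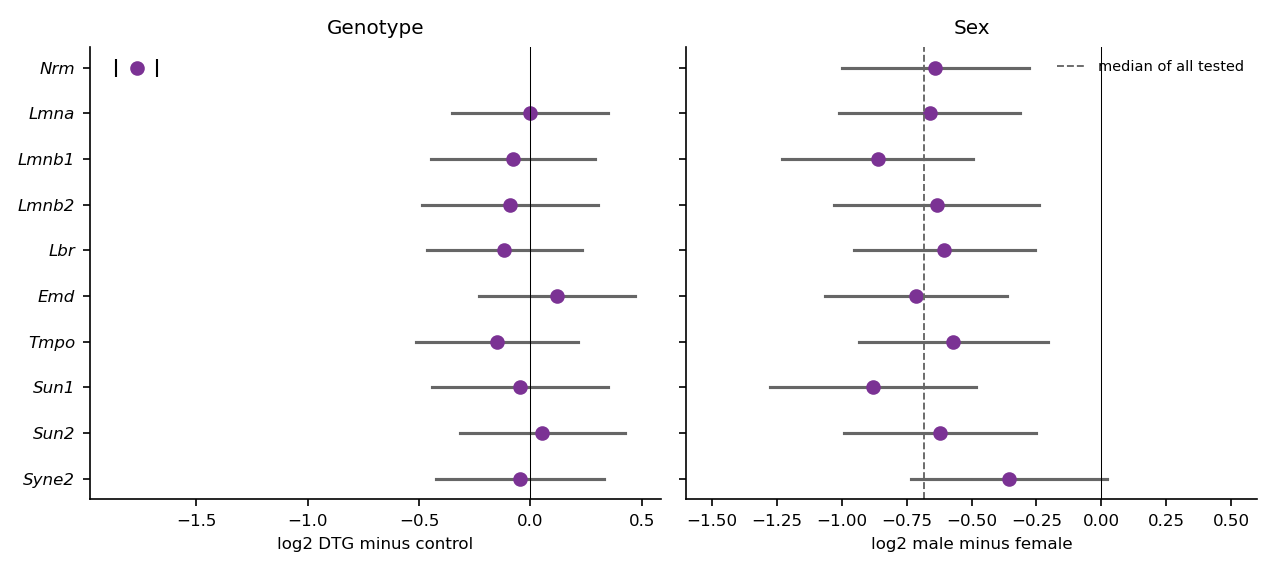
Left, difference of DTG minus control (x axis, log2) for the brightest probe set of each gene with its 95% limma interval (bars); for Nrm, which was chosen for this value, the ticks are the 2 pair ratios instead. Right, difference of male minus female with its 95% interval, where the dashed line is the median of all tested probe sets, -0.69. The other 9 genes straddle 0 on the left, and all 10 intervals cross the dashed line on the right.

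The difference between the sexes varied between probe sets of a gene. For Syne2 they gave -0.35, -0.89 and 0.22 for male minus female, for Sun1 -0.88 and -1.59, and for Tmpo from -0.99 to -0.0745. Relative to the overall median of -0.69, the first probe set of Sun1 thus stood at -0.19 and the second at -0.90.

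Markers of differentiated hair were measured lower in DTG along with Nrm. Of 16 genes of the inner root sheath and hair shaft, 14 were lower in both pairs (against 25.1% of all genes) and 0 higher, with medians of -0.57 and -0.53, and 4 were at least 1.5-fold lower in both (against 0.851%). By limma, 12 of the 16 were lower at an unadjusted p under 0.05, against 4.71% of all genes, and 0 passed an adjusted p of 0.05, as did 0 probe sets of the whole array. The log2 of their summed level was 13.97 against 14.51 in the males and 12.18 against 12.76 in the females, DTG first. Between the sexes, 14 of the 16 were higher in males at an adjusted p under 0.05 in limma, against 2.54% of all genes. The median of male minus female was 2.23, against -0.69 over all tested probe sets. Some read low in the females, such as Krt34 with 5.25 and 5.35, DTG first, where the background mark was at most 4.24. Of 6 sebaceous gland genes, 4 were lower in both pairs (66.7%, against 25.1% of all genes). Their summed level was 12.70 against 13.06 in the males and 12.60 against 12.83 in the females. Of 7 suprabasal genes 4 were lower in both (57.1%). Their summed level was 12.15 against 13.29 in the males but 12.90 against 12.74 in the females. By limma, 0 genes of the latter lists passed either. Of 10 keratinocyte markers 5 were lower in both pairs (50%), with sums of 15.50 against 15.82 and of 16.08 against 16.10. Fibroblast markers had 0 of 7 lower and 3 higher in both pairs. Melanocyte markers had 2 of 6 lower, and endothelial markers 2 of 3. Of the immune markers, 6 of 8 lay below the filter and 0 of the 2 tested were lower in both pairs. Of the adipocyte markers only Fabp4 was tested (-0.95 and -1.45), and Adipoq, Cidec and Lep were below the filter. The part of these cell types in the Nrm difference was not tested.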

How the data were processed

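Total RNA of sorted outer root sheath cells from 4 mice was hybridized to 1 Affymetrix mouse array each. The authors deposited log2 expression values per probe set, which the submitters' processing notes trace to RMA as run by Affymetrix Expression Console, with no version stated. Of 45101 probe sets, 64 array controls were left out, and 34945 name 1 gene in the platform annotation, which was matched to RefSeq by gene ID.

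A limma model (version 3.58.1 in R 4.3.3, with lmFit and untrended eBayes) held genotype and sex as terms and was fitted to the log2 values as deposited, over 22518 probe sets whose mean exceeded the median of all means (5.54), with Benjamini-Hochberg adjustment at 0.05. The standard error had a median of 0.15. Sex was in the model because each group holds 1 male and 1 female and because same-sex arrays shared deviations (Pearson's r of 0.76 between the male minus female differences of DTG and control, across probe sets). The sex in the labels pairs the arrays, which come from separate animals. The brightest probe set stood for a gene, and other tested probe sets are given beside it for the envelope genes and, where a sign differs, for the genes named from the pathway lists. Means ± SD are over the 2 pairs. The genes and lists were chosen with earlier results of these data known, and the neighbours of Nrm after its values were seen. From each pathway list, up to 4 genes with the largest mean of the 2 unsigned pair ratios were named, which can favour divided genes, along with the 6 genes nearest to Nrm, and Icmt and Zmpste24 after their values were seen. Alternatives were quantile or median scaling, no term for sex, other filters, other probe sets, an intensity trend and leaving out each array.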

Additional observations from a re-analysis of the deposited data

Results flagged for a closer look

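The ratio of DTG to control had opposite signs in the male and the female pair for 5 of the envelope genes. With the male pair first, these were Lmnb1 (0.039 and -0.20), Lmnb2 (-0.28 and 0.096), Sun1 (-0.23 and 0.14), Sun2 (-0.0755 and 0.18) and Syne2 (-0.19 and 0.099). The same held for 7 genes named from the lists, which were Lemd3 (0.22 and -0.39, but -0.35 and 0.39 by another probe set), Spag4 (-0.25 and 0.28), Tor1a (0.060 and -0.30), Nup153 (0.29 and -0.27), Aurkb (0.30 and -0.33), Msmo1 (0.58 and -0.47) and Ebp (-0.33 and 0.44). The difference between the pairs was not tested, since 1 pair per sex leaves no spread for it. Over all tested genes, 5359 of 11160 were neither lower in both pairs nor higher in both. That number takes in any gene with a ratio of exactly 0 in a pair, so it is not a count of opposite signs.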

How the results depend on the processing

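The Nrm difference was -1.75 with quantile normalization and -1.78 with medians subtracted. The term for sex, the filters, the intensity trend and the mean over probe sets could not move it. The groups are balanced for sex, and only 1 Nrm probe set passed the filter. Without 1 DTG or control array the difference was the ratio of the other pair, with no test, from -1.86 to -1.68. The 9 other genes stayed at 0 calls in every alternative with a test (adjusted p from 0.877 to 1 in limma). Lmnb2 lay below the filter at the 75th percentile and was not tested there. Of the list genes 0 were called, with Nrm left out of that count. Without a term for sex (no replicate block), 1 probe set was called over the whole array instead of 0. That count covers all tested probe sets, that of Nrm among them. The count for the 9 genes was the same. Signs of values near 0 turned. The mean over probe sets gave 0.055 for Lmna and -0.0011 for Sun2, and single probe sets gave 0.033, 0.0071 and 0.27 for Lmna and -0.055 for Sun2. With arrays left out, Lmnb1 ranged from -0.20 to 0.039, Lmnb2 from -0.28 to 0.096, Sun1 from -0.23 to 0.14, Sun2 from -0.0755 to 0.18 and Syne2 from -0.19 to 0.099.

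The sex differences depended on scaling and, for Sun2 and Syne2, on the probe set or trend (Sun2 gave -0.082 by its second probe set, adjusted p = 0.668 in limma). The median of all probe sets moved from -0.69 to -0.032 with quantile normalization and to 0.083 with medians subtracted, members called from 9 to 0 and 0, and list genes called, members included, from 73 to 15 and 9. With the filter at the 75th percentile, where Lmnb2 was not tested, 8 members were called. Male minus female became 0.037 for Nrm, 0.055 for Lmnb2 and 0.24 for Syne2 after quantile normalization. With medians subtracted it became 0.13 for Nrm, 0.11 for Lmna, 0.13 for Lmnb2, 0.16 for Lbr, 0.054 for Emd, 0.20 for Tmpo, 0.15 for Sun2 and 0.41 for Syne2. As deposited, 1 probe set of Syne2 gave 0.22. Array signal limits the second Nrm probe set, which is at background.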
